A study of Rattus norvegicus with 22 samples.

Results

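The genes Adrb1, Rgs2, Pde4b, Pde4d, Crem and Ppargc1a carry or answer signals of the beta-adrenergic receptors through cyclic AMP, and they were followed across injured and treated rat spinal cord. These 6 of 14217 measured genes were taken by gene symbol from the array annotation, which gave 17 of the 31042 probe sets tested (a probe set is a group of short probes against 1 transcript). Adrb1 had 1 probe set, Pde4b and Rgs2 had 2 each, Pde4d and Ppargc1a had 3 each, and Crem had 6. None of the 17 probe sets passed the test in any of 12 comparisons between groups, clenbuterol against untreated contusion included.

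A beta-adrenergic receptor that binds its agonist activates the stimulatory G protein, which switches on adenylyl cyclase to make cyclic AMP. Cyclic AMP frees protein kinase A, and the kinase phosphorylates CREB, a transcription factor that binds the cyclic AMP response element in promoters. Phosphodiesterases of the PDE4 family break cyclic AMP down, so they set how long the signal lasts. In the spinal cord this pathway is known for its part in axon growth, glial responses and the action of noradrenaline from the brainstem.

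Total RNA of rat spinal cord was hybridised to 22 arrays, 1 for each sample. The contused groups were clenbuterol (2 arrays), X-ray (3), tempol (3), buthionine sulfoximine or BSO (3), tempol plus BSO (3) and untreated contusion (2), and the uninjured groups were laminectomy (3) and normal cord (3). All contused rats received a weight of 10 g, with a tip of 2.5 mm, dropped from 25 mm onto thoracic level 10. The labels give that level for the contusion alone. The design gives 24 h after injury as the time of the profile, and no collection time is labelled for the laminectomy and normal arrays. Clenbuterol, a beta-adrenergic agonist, is labelled as 150 mg/kg, tempol, a nitroxide antioxidant, as 275 mg/kg and X-rays as 10 Gy, each given 20 min after the injury. BSO, which blocks glutathione synthesis, is labelled as 150 mg/kg given 24 h before it. The dose labelled for clenbuterol is far above those usual for this drug, and the labels do not settle its unit. They also leave out strain, sex and age, and they do not tie arrays to separate rats, so every p-value rests on the spread between samples, which may be technical. Every uninjured array was made from operated (laminectomy) or unoperated (normal) cord, and no array holds clenbuterol in an uninjured rat.

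The promoters of the 6 genes hold the cyclic AMP response element to different degrees, and the stretches below are shown because this element is the link between cyclic AMP and transcription. The 250 bases before each annotated start were searched on both strands for the full element TGACGTCA and for its shorter form TGACG, read on the other strand as CGTCA (each full element also holds both shorter ones). Sequences and positions are those of RefSeq on GRCr8, and all 6 genes matched, with 13 start sites between them. The full element was found in 1.59% of all 33469 promoters searched, and a shorter or full form in 18.2%. Capitals mark the element, and each sequence is read 5′ to 3′ along the strand of its gene.
Ppargc1a, chr14:63634101-63634160, plus strand, element 181 bases before the start: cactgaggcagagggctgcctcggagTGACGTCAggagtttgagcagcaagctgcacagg
Crem start 2, chr17:58984715-58984774, plus strand, element 56 bases before the start: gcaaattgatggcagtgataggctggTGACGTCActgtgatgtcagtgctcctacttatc
Crem start 3, chr17:58985429-58985488, plus strand, element 35 bases before the start: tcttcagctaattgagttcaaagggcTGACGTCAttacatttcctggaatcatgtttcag
Adrb1, chr1:265776987-265777046, plus strand, shorter form 88 bases before the start: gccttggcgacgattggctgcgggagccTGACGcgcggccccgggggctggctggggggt
Rgs2, chr13:58352851-58352910, minus strand, shorter form 216 bases before the start: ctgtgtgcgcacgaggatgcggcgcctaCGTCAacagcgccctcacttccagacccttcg
The first Crem start had the shorter form 241 and 6 bases before it. Of the 5 Pde4d starts, the shorter form stood before the third and the fourth. Neither of the 2 Pde4b starts had a match in this window. A match describes the letters only, and the arrays carry no measure of binding at these sites.

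The deposited values are linear signal intensities, and they were compared as log2 values. Signals run from 0.3 to 154527.2 over the 22 arrays. Laminectomy 2 and normal 1 stood apart from the other arrays, with median correlations to them of 0.667 and 0.685, against 0.725 to 0.785 for the rest. The cord is a mixture of cells, so fewer cells of a type and less RNA per cell cannot be told apart here. As a check of the labelled tissue, all 10 neuron markers and 7 of 8 oligodendrocyte markers were measured, and their summed signals ran from 4731.4 to 19522.6 and from 26247.6 to 72674.6 in contused arrays, against 16839.4 to 37476.2 and 40479.5 to 105512.6 in uninjured arrays. The labels name no batch.

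A single model over all 8 groups was fitted with limma, and the p-values were adjusted by Benjamini-Hochberg over all 31042 probe sets, with 0.05 as the threshold. In clenbuterol minus contusion 0 of the 17 probe sets passed, where 0.00322% of all probe sets did. Clenbuterol minus the mean of the 5 other contused groups also gave 0 of 17 against 0.00644% of all. The share of all probe sets that passed was 0% in clenbuterol minus X-ray, clenbuterol minus tempol, X-ray minus contusion, tempol minus contusion, BSO minus contusion and tempol plus BSO minus contusion, again with 0 of 17. It was 0.00322% in contusion minus laminectomy, 0.0483% in contusion minus normal and 0.00644% in laminectomy minus normal, and 0 of the 17 were among them. In the mean of the 6 contused groups minus the mean of the 2 uninjured groups 0.319% of all probe sets passed and 0 of 17 here. A moderated F test of differences among the 8 groups called 0.0612% of all probe sets and none of the 17, with the smallest adjusted p at 0.200 for the second probe set of Rgs2.

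At an unadjusted p under 0.05 the count differed between comparisons. Clenbuterol minus contusion had 0 of 17 against 5.36% of all probe sets, and clenbuterol minus the other contused groups 0 of 17 against 6.12%. Contusion minus laminectomy had 4 of 17 against 5.38%, laminectomy minus normal 2 of 17 against 5.59%, and all contused minus all uninjured 3 of 17 against 10.4%. The comparisons with laminectomy share its 3 arrays. Those calls came from probe sets 2 to 4 of Rgs2, Pde4d, Ppargc1a and Crem, and none came from the probe set with the highest mean of its gene. Probe sets are numbered within a gene by their mean over the 22 arrays, and the first one stands for the gene where no number is given. With so few arrays a group, full separation is common. Arrays did not overlap for 4 of 17 probe sets in X-ray minus contusion, against 24.2% of all. The count was 2 of 17 against 16.2% in tempol minus contusion, and 2 of 17 against 18% in tempol plus BSO minus contusion. It was 5 of 17 against 19.9% in contusion minus laminectomy, and 2 of 17 against 8.57% in laminectomy minus normal.

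**Figure D1:**
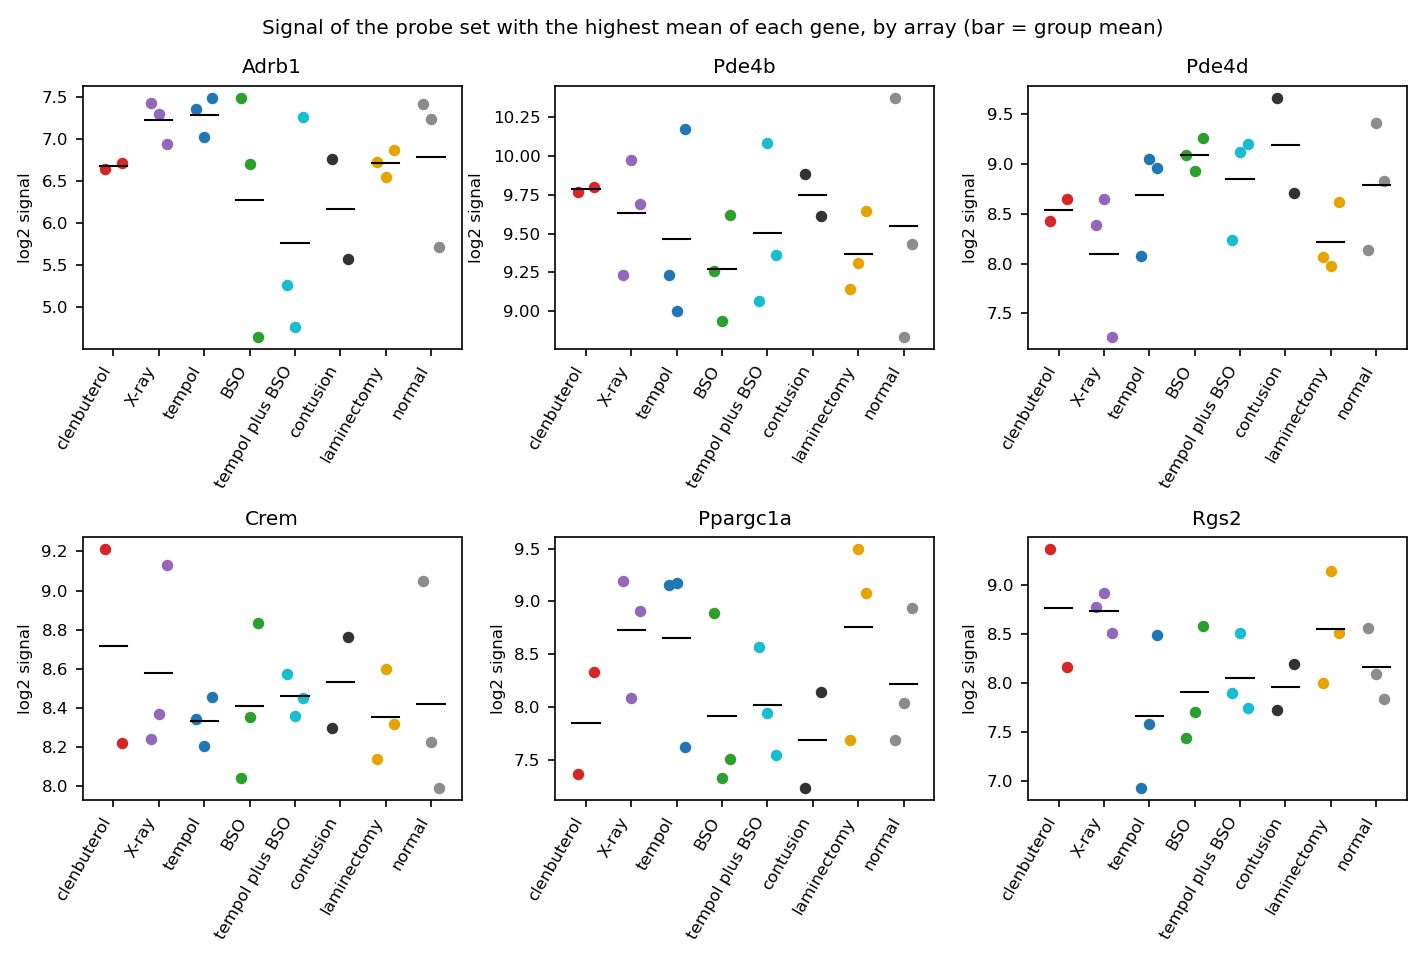
Log2 signal of the 6 genes on each of the 22 arrays, with the 8 groups along the x axis and a bar at each group mean, for the probe set with the highest mean of each gene. The clenbuterol arrays lie inside the span of the other contused arrays except for Crem and Rgs2, where clenbuterol 1 is the highest of the contused arrays at 592.4 and 660.1.

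Adrb1 encodes the beta-1 receptor, the beta-adrenergic subtype best known from the heart and also present in brain and cord. Its signal was 99.4 and 104.9 in the clenbuterol arrays, against 108.4 and 47.6 in the contusion arrays. The difference was 0.51 ± 0.84 on the log2 scale (standard error; 95% interval -1.25 to 2.26, adjusted p = 1.00), and the 2 groups overlapped. X-ray arrays read 172.0, 157.2 and 122.3, and tempol arrays 163.4, 129.5 and 179.0. BSO arrays read 178.3, 103.7 and 25, and tempol plus BSO arrays 38.2, 27.0 and 152.4. Laminectomy arrays read 105.2, 93.4 and 116.7, and normal arrays 170.6, 150.5 and 52.2. Tempol had the highest mean log2 level (7.28) and tempol plus BSO the lowest (5.75), a span of 1.53 that was not tested as a pair. The F test over the 8 groups gave an adjusted p of 0.905. Neighbouring groups in that order lay at most 0.635 of a standard error apart. Sorting makes such steps small, so they do not test the span. The mean over contused groups differed from that over uninjured groups by -0.19 ± 0.40 (interval -1.03 to 0.66). Adrb3, the beta-3 receptor of fat, read 630.8 and 2694.2 in the clenbuterol arrays, against 265.9 and 528.7 in the contusion arrays, a difference of 1.80 ± 0.76 (adjusted p = 0.929) that was 0.75 without clenbuterol 2 and 2.85 without clenbuterol 1.

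Rgs2 encodes a regulator of G protein signalling that speeds the shut-off of Gq and also binds adenylyl cyclase, and its transcript is a known target of cyclic AMP. It read 660.1 and 286.5 with clenbuterol, against 211.3 and 293.7 in untreated contusion. One clenbuterol array lay above both contusion arrays and the other between them, and the difference was 0.80 ± 0.60 (95% interval -0.45 to 2.06, adjusted p = 0.995). X-ray arrays read 438.5, 485.0 and 365.4, all above the contusion arrays, while tempol arrays read 121.2, 191.2 and 358.7. BSO arrays read 173.6, 207.8 and 383.6, and tempol plus BSO arrays 237.9, 364.7 and 214.9. Laminectomy arrays read 255.5, 566.0 and 364.2, and normal arrays 377.0, 272.0 and 229.0, so the uninjured cord covered much of the range of the contused cord. Clenbuterol had the highest group mean (8.76 in log2 units) and tempol the lowest (7.66). Clenbuterol minus tempol was 1.10 ± 0.55 (adjusted p = 0.776), and clenbuterol minus the other contused groups was 0.70 ± 0.45 (interval -0.25 to 1.65, adjusted p = 0.888). All contused minus all uninjured was -0.18 ± 0.29.

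The second probe set of Rgs2 did not follow the first (Pearson r = -0.37 over the 22 arrays, a description). It read 25, 10.2 and 24.8 in the laminectomy arrays, against 174.1, 163.5 and 129.8 in the normal arrays. All laminectomy arrays lay below all normal arrays, with a difference of -3.06 ± 0.54 (adjusted p = 0.0592), the smallest adjusted p of the 17 probe sets in all 12 comparisons. With probe sets under a mean log2 signal of 6 left out before the adjustment the adjusted p was 0.0309. The probe set met that limit narrowly, at a mean of 6.01, which was 5.81 without the normal arrays in which it was high, so this adjusted p supports no difference. The contusion arrays read 191.4 and 81.9, which put contusion minus laminectomy at 2.76 ± 0.60 (adjusted p = 0.718), whereas the first probe set gave -0.59 ± 0.55 in the same comparison. Clenbuterol read 59.1 and 107.2 on the second probe set, and its difference from contusion was -0.65 ± 0.66, opposite in sign to the first. The tempol arrays (38.2, 51.0 and 35.1) lay below both contusion arrays, at -1.61 ± 0.60 (adjusted p = 1.00). Which of the probe sets stands for the Rgs2 transcript was not tested.

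Pde4b and Pde4d encode cyclic AMP phosphodiesterases, and PDE4B is the form best known from inflammatory cells. Pde4b read 872.6 and 891.3 with clenbuterol, against 945.2 and 782.7 in contusion, and the clenbuterol values fell between the contusion values. The difference was 0.04 ± 0.56 (95% interval -1.13 to 1.20). On this probe set a change beyond 2.30-fold upward or to 0.457 of the contusion level lies outside the interval. X-ray arrays read 602.1, 1005.6 and 824.2, tempol arrays 601.3, 511.9 and 1151.7, BSO arrays 612.7, 490.6 and 785.5, and tempol plus BSO arrays 536.2, 1081.4 and 657.7. Laminectomy arrays read 566.0, 636.0 and 798.9, and normal arrays 1324.0, 457.3 and 690.9. The 8 group means spanned 0.51 in log2 units (F test, adjusted p = 0.992). Sorted neighbours lay at most 0.230 of a standard error apart, which does not test the span. Its second probe set read 142.6 and 192.3 with clenbuterol, against 30.4 and 128.9 in contusion (1.40 ± 0.88, adjusted p = 0.974), and the groups did not overlap. The 2 probe sets did not follow each other (Pearson r = -0.39 over the 22 arrays), and the bound above is that of the first alone.

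Pde4d read 343.6 and 400.9 with clenbuterol, against 811.2 and 418.6 in contusion. Both clenbuterol arrays lay below both contusion arrays, and the difference was -0.65 ± 0.59 (95% interval -1.88 to 0.58, adjusted p = 0.999). X-ray arrays read 335.8, 400.4 and 153.9, also all below the contusion arrays (-1.09 ± 0.53, adjusted p = 1.00). Tempol arrays read 269.2, 529.1 and 498.0, BSO arrays 544.4, 487.4 and 614.2, and tempol plus BSO arrays 301.3, 557.2 and 589.5. Laminectomy arrays read 267.7, 251.6 and 392.2, and normal arrays 282.2, 680.6 and 454.6. Contusion had the highest group mean and X-ray the lowest, and all contused minus all uninjured was 0.24 ± 0.28. The second probe set of Pde4d read 503.3 and 69 with clenbuterol, against 105.5 and 1466.3 in contusion, and the groups overlapped. On the third probe set of Pde4d the sign was opposite to that of the first (0.97 ± 0.53 in contusion minus laminectomy). It read 25.4 and 11.8 in contusion, against 151.5, 172.9 and 36.3 in laminectomy (-2.51 ± 0.82, adjusted p = 0.916), and the groups did not overlap. Normal cord read 22.4, 24.3 and 27.0 on it, so laminectomy also stood above normal (2.01 ± 0.74, adjusted p = 0.773).

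Crem encodes the cyclic AMP response element modulator, whose short form ICER is made from an inner promoter and represses cyclic AMP targets. It read 592.4 and 298.6 with clenbuterol, against 315.0 and 434.3 in contusion. The clenbuterol arrays lay on either side of the contusion arrays, with a difference of 0.19 ± 0.50 (95% interval -0.87 to 1.24). X-ray arrays read 302.5, 330.3 and 559.8, tempol arrays 325.2, 295.4 and 350.7, BSO arrays 263.9, 327.2 and 455.9, and tempol plus BSO arrays 381.5, 328.3 and 349.9. Laminectomy arrays read 282.3, 388.3 and 319.4, and normal arrays 529.2, 299.8 and 254.1. The 8 group means spanned 0.38 in log2 units, the smallest span of the 17 probe sets. Both full elements printed above stand before the inner start sites of this gene, and which of the 6 probe sets reads the ICER form, the labels and the annotation do not say.

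The other Crem probe sets disagreed in direction with clenbuterol. Differences from contusion were -0.97 ± 0.69, 1.19 ± 0.79, 0.13 ± 1.09, -1.11 ± 1.14 and 1.28 ± 1.06 for the second to the sixth. On the third, clenbuterol read 136.0 and 92.8 and contusion 39.2 and 61.8, with clenbuterol above. On the second, clenbuterol read 243.3 and 104.3 and contusion 311.3 and 312.9, with clenbuterol below. Across the whole set, 4 of 17 probe sets did not overlap between clenbuterol and contusion, where 35.5% of all probe sets did not. Correlations between pairs of Crem probe sets over the 22 arrays lay between -0.38 and 0.33. The fourth probe set, which was dim, read higher in most contused arrays than in any uninjured one. The contused arrays read 16.8 at the lowest, 81.85 at the median and 407.2 at the highest, against 11.6, 17.9 and 74.0 in uninjured arrays. Of the 16 contused arrays 10 lay above all 6 uninjured arrays, and the difference was 1.87 ± 0.52 (adjusted p = 0.161).

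Ppargc1a encodes PGC-1 alpha, a coactivator of mitochondrial and fatty acid oxidation genes that CREB induces in muscle, liver and brown fat. It read 164.9 and 322.2 with clenbuterol, against 149.8 and 281.6 in contusion, and the groups overlapped (0.17 ± 0.74, 95% interval -1.39 to 1.73). X-ray arrays read 584.1, 271.0 and 480.9, tempol arrays 570.5, 578.4 and 196.9, BSO arrays 474.7, 160.8 and 182.0, and tempol plus BSO arrays 378.8, 245.0 and 185.9. Laminectomy arrays read 205.5, 720.4 and 541.8, and normal arrays 205.8, 262.6 and 489.6. Contusion had the lowest group mean (7.68) and laminectomy the highest (8.75), with contusion minus laminectomy at -1.07 ± 0.68 (adjusted p = 0.948). All contused minus all uninjured was -0.35 ± 0.36. The second probe set, which was dim, read lower in contused than in uninjured arrays (-1.33 ± 0.41, adjusted p = 0.220). Contused arrays read 12.1 at the lowest, 37.0 at the median and 129.9 at the highest, against 40.3, 88.7 and 141.9 in uninjured arrays. Of the contused arrays 8 lay below all uninjured arrays. Tempol plus BSO (97.9, 129.9 and 77.5) stood above contusion (19.1 and 41.5) on it, at 1.82 ± 0.78 (adjusted p = 1.00). Clenbuterol read 26.8 and 12.1 on the second probe set, which overlapped the contusion arrays. The third probe set read between 4.1 and 171.8 over all arrays, and clenbuterol minus contusion was -1.63 ± 1.26 on it. On both the second and the third, clenbuterol had the lowest mean of the 8 groups, opposite in direction from contusion to the first.

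**Figure D2:**
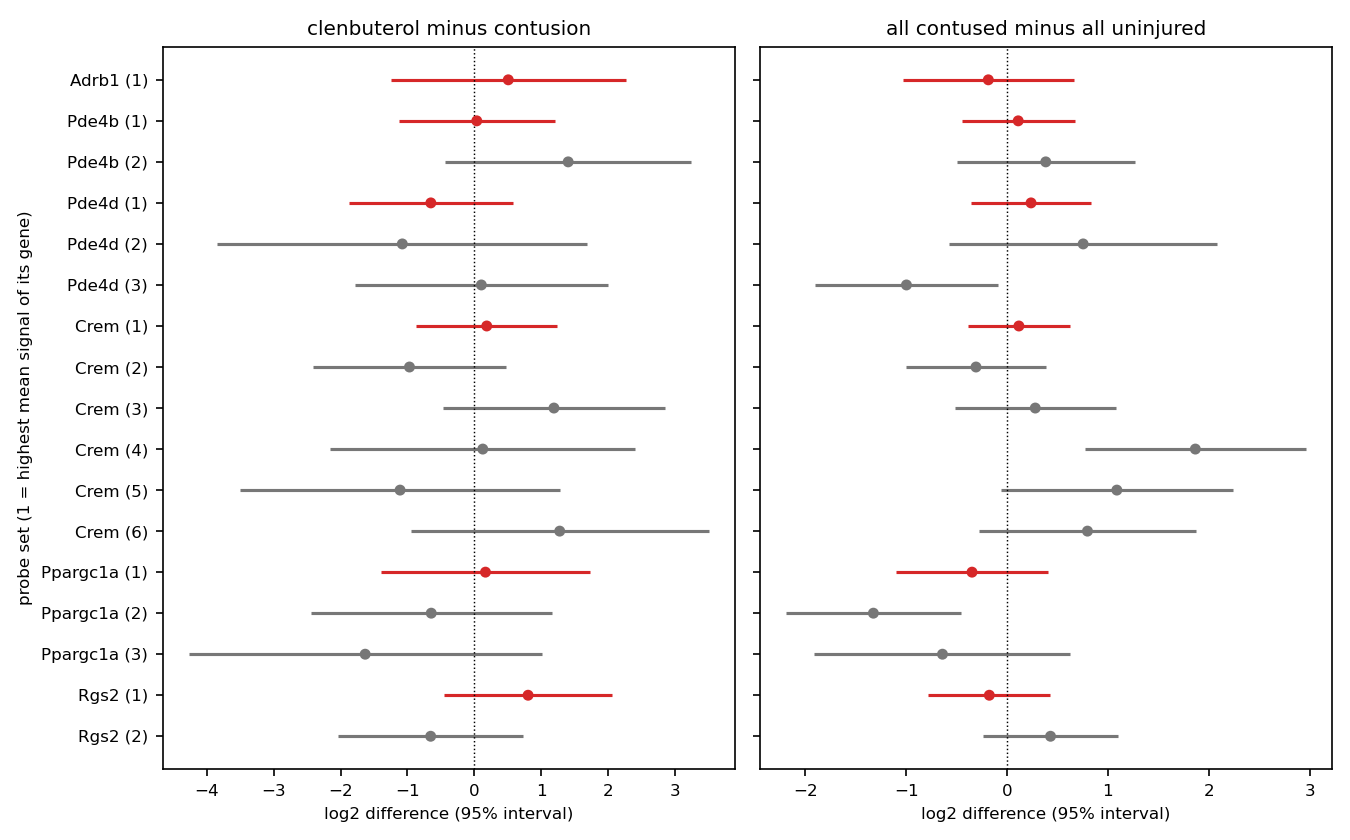
Log2 difference with its 95% interval for each of the 17 probe sets, in clenbuterol minus contusion (left) and all contused minus all uninjured (right), with the probe set that stands for each gene in red. All 17 intervals cross 0 on the left, and those of Pde4d probe set 3, Crem probe set 4 and Ppargc1a probe set 2 do not on the right.

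With each gene read through its first probe set, 5 of the 6 were higher and 1 lower in clenbuterol minus contusion. The median was 0.18 against -0.03 over all 14217 genes, of which 48.3% were higher. Over all 17 probe sets 10 were higher and 7 lower, with a median of 0.10 against -0.03 over all probe sets. The signs of 4 of the 6 genes turned when 1 array was left out. Without contusion 2 the differences of Adrb1 and Pde4b were -0.09 and -0.10, without contusion 1 those of Crem and Ppargc1a were -0.05 and -0.29, without clenbuterol 1 that of Crem was -0.31, and without clenbuterol 2 that of Ppargc1a was -0.32. Rgs2 kept its sign in every alternative run, between 0.075 and 1.41, and so did Pde4d, between -1.13 and -0.17. That holds only for the first probe set of each gene or the mean of its probe sets. The second probe set of Rgs2 was opposite in sign, as given above. For Pde4d the second probe set ran from -2.98 to 0.82, and the third averaged 4.22 with clenbuterol against 4.11 in contusion. Against the other contused groups, clenbuterol was at 0.13 ± 0.63 for Adrb1, 0.26 ± 0.42 for Pde4b, -0.25 ± 0.44 for Pde4d, 0.25 ± 0.38 for Crem and -0.35 ± 0.56 for Ppargc1a. In all contused minus all uninjured Pde4b was at 0.11 ± 0.27 and Crem at 0.12 ± 0.24. There 3 of the 6 genes were higher and 3 lower, between -0.35 and 0.24, with a median of -0.03 against 0.0058 over all genes.

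**Figure D3:**
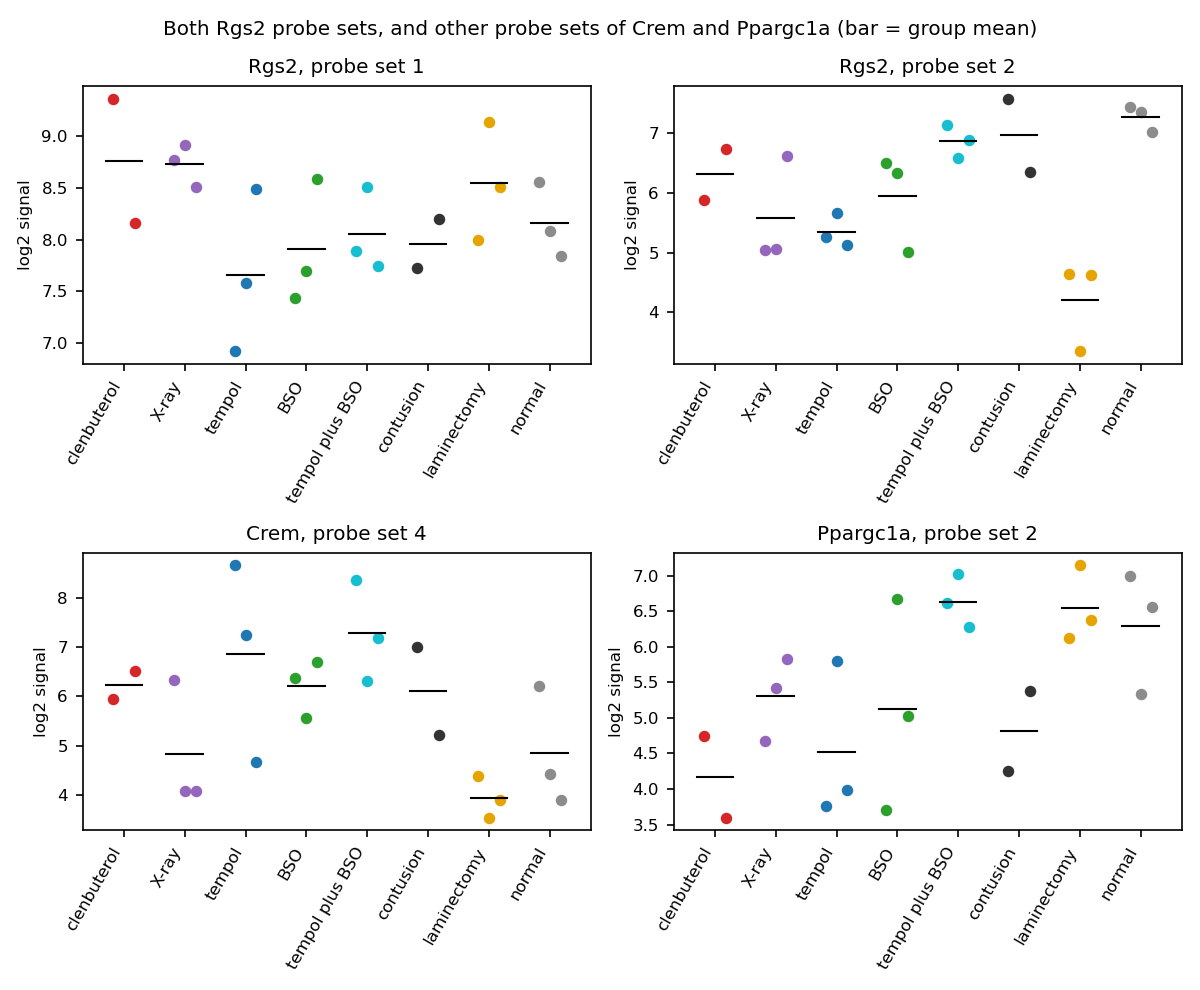
Log2 signal by array for both Rgs2 probe sets, Crem probe set 4 and Ppargc1a probe set 2, with the 8 groups along the x axis and a bar at each group mean. On Rgs2 probe set 2 the 3 laminectomy arrays, at 10.2 to 25, lie below all the other arrays, which the first probe set does not show.

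The rest of the pathway was read from 9 gene lists, with 137 genes of which 128 were measured, each through its probe set with the highest mean. In clenbuterol minus contusion 0 of the 128 passed. At an unadjusted p under 0.05 there were 11, or 8.59%, where 5.26% of all 14217 genes were. The adrenergic receptors had 8 measured genes, 5 of them higher (median 0.34), and the receptor kinases and arrestins had 7, with 4 higher (median 0.069). Of 13 G proteins and adenylyl cyclases 6 were higher (median -0.27), with Gnas, the stimulatory G protein, at 865.7 and 958.3 in clenbuterol arrays, against 510.6 and 918.0 in contusion arrays (0.41 ± 0.54). Of 15 phosphodiesterases 9 were higher (median 0.036). The smallest p among them was that of Pde2a, the phosphodiesterase that cyclic GMP stimulates, at 2053.4 and 3519.0 in clenbuterol arrays, against 179.2 and 742.7 in contusion arrays (2.88 ± 1.09, adjusted p = 0.873, and 1.86 without contusion 1). X-ray arrays also lay above both contusion arrays for Pde2a, at 2057.5, 1178.9 and 2261.9. Tempol arrays read 215.3, 271.6 and 1297.7, BSO arrays 144.6, 1465.4 and 1124.6, and tempol plus BSO arrays 906.1, 238.1 and 254.6. Pde4a, another PDE4 gene, was at -1.17 ± 1.05. Of 21 genes of protein kinase A, its anchors and EPAC 13 were higher (median 0.13), of 9 CREB family genes 5 (median 0.19, with Creb1 at -1.02 ± 0.68), of 16 RGS genes 9 (median 0.14, with Rgs4 at -0.41 ± 0.92) and of 15 PGC-1 partners and targets 10 (median 0.091). Among these last, Cpt1a, which carries fatty acids into mitochondria, was at 1.59 ± 0.64 (adjusted p = 0.906), at 0.90 without contusion 2 and at 0.20 with the mean of its probe sets.

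Of the genes known as targets of cyclic AMP none passed in clenbuterol minus contusion. Of 29 measured, 23 were higher with clenbuterol than in contusion, with a median of 0.42 against -0.03 over all genes, and the count was 19 to 21 when any 1 of the 4 arrays was left out. Against the same contusion arrays 18 of the 29 were higher with X-ray (median 0.31), 14 with tempol (-0.080), 16 with BSO (0.039) and 15 with tempol plus BSO (0.0029), and no difference between treatments in these counts was tested. Without 5 of the 6 genes, which the list also holds, 19 of 24 were higher (79.2%, against 48.3% of all genes), and the difference in share was not tested. Clenbuterol minus the other contused groups rests on the same 2 clenbuterol arrays, and 24 of the 29 were higher in it (median 0.28). Of these 29 genes 0 passed there. Without the same 5 genes 21 of 24 were higher there (87.5%, against 49.7% of all genes), which was not tested either. Per1, a clock gene that cyclic AMP induces, had the smallest p of the list. It read 200.4 and 867.1 in clenbuterol arrays, against 107.0 and 57.7 in contusion arrays, so that both clenbuterol arrays lay above both contusion arrays (2.41 ± 0.68, adjusted p = 0.683). Without clenbuterol 2 the difference of Per1 was 1.35. Normal cord read 413.8, 149.8 and 158.3 for Per1, which overlaps the clenbuterol arrays. Dusp1, a phosphatase that turns off MAP kinases, read 1134.9 and 769.1 in clenbuterol arrays, against 533.2 and 297.7 in contusion arrays (1.23 ± 0.51, adjusted p = 0.927, with 0.81 without contusion 2 and 0.77 with the mean of its probe sets). Penk, which encodes the enkephalin precursor, was at 1.19 ± 0.49 (adjusted p = 0.922). Nr4a1, Sik1 and Fos, all early cyclic AMP targets, were at 0.85 ± 0.86, 1.03 ± 0.84 and 0.73 ± 1.02, and Nr4a3 was at -0.21 ± 0.70. The other targets that read lower with clenbuterol were Cebpb (-0.94), Fosb (-0.91), Bdnf (-0.74), Per2 (-0.64) and Pde4d, named here after their values were seen.

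Marker signals also differed between the same arrays, though no marker of any listed cell type passed in clenbuterol minus contusion. Summed over 8 of 8 markers, microglia and macrophages read 8322.1 to 8705.9 with clenbuterol, against 16129.7 to 16798.2 in contusion, with 3 of the markers higher and 5 lower (median -0.78). Neuron markers (10 of 10) read 11193.7 to 15569.8 with clenbuterol, against 4731.4 to 10318.1 in contusion, with 6 higher and 4 lower (median 0.75). Astrocyte markers (8 of 8) read 29669.2 to 33481.4 with clenbuterol, against 19601.0 to 21206.3 in contusion, with 6 higher and 2 lower (median 0.75). Oligodendrocyte markers (7 of 8) read 47547.0 to 72674.6 with clenbuterol, against 31811.3 to 49475.3 in contusion, and all 7 measured were higher (median 0.78). Endothelial markers (7 of 8) read 2056.9 to 2889.2 with clenbuterol, against 2970 to 3833.3 in contusion, with 2 higher and 5 lower. Pericyte and smooth muscle markers (8 of 8) read 1584.7 to 1601.9 with clenbuterol, against 1869 to 2121.6 in contusion, with 3 higher and 5 lower. The sums of neutrophil, red cell, and skeletal muscle and fat markers overlapped. A sum follows its most abundant genes, while the counts weight each marker equally. No array signal is 0, so no marker is at 0. The part of these markers in the values above was not tested.

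In all contused minus all uninjured 4 of the 128 pathway genes passed, all higher, where 0.443% of all 14217 genes passed in either direction. This comparison mixes injury and treatment, since every contused group except untreated contusion was also treated. In contusion minus laminectomy and in contusion minus normal 0 of the 128 passed. At an unadjusted p under 0.05 in all contused minus all uninjured there were 16.4% of the pathway genes against 11.2% of all genes. The 4 were Rgs16, Egr1, Fos and Nfil3, and none passed as lower. Rgs16, which shuts off Gi and Gq, read 382.9 at the lowest, 830.35 at the median and 1372.6 at the highest in the 16 contused arrays, against 91.5, 244.85 and 466.7 in the 6 uninjured arrays. Of the contused arrays 14 lay above all uninjured arrays, and the difference was 1.84 ± 0.27 (adjusted p = 0.00302). Egr1, an immediate early transcription factor, read 338.7, 526.6 and 1273.9 in contused arrays, against 7.9, 152.65 and 359.0 in uninjured arrays (2.47 ± 0.43, adjusted p = 0.0122). Fos, a subunit of AP-1, read 173.6, 368.55 and 1070.2 in contused arrays, against 7.5, 109.05 and 292.8 in uninjured arrays (2.59 ± 0.49, adjusted p = 0.0245). Nfil3, a repressor of the bZIP family, read 109.6, 261.85 and 438.7 in contused arrays, against 20.7, 49.1 and 258.7 in uninjured arrays (2.09 ± 0.43, adjusted p = 0.0379).

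For Fos and Egr1 the difference from contusion was smaller against laminectomy than against normal cord, while laminectomy minus normal itself did not pass (3.39 ± 0.83 with adjusted p = 0.506 for Fos, and 2.51 ± 0.73 with adjusted p = 0.593 for Egr1). Fos read 95.7, 291.7 and 292.8 in laminectomy arrays, against 122.4, 7.5 and 7.7 in normal arrays, and contusion minus laminectomy was 0.74 ± 0.93 while contusion minus normal was 4.13 ± 0.93 (adjusted p of 0.972 and 0.168). Egr1 had 0.63 ± 0.81 and 3.14 ± 0.81 in the same comparisons, Rgs16 had 1.01 ± 0.51 and 2.28 ± 0.51, and Nfil3 had 2.42 ± 0.81 and 1.93 ± 0.81. Fos no longer passed without laminectomy 1, normal 2 or normal 3 (2.25 to 2.32, adjusted p of 0.0741 to 0.0821). Nfil3 passed without laminectomy 3, X-ray 1, tempol plus BSO 2, BSO 2 or normal 1, and it did not pass without any of the 17 other arrays (1.78 to 2.16, adjusted p of 0.0545 to 0.132). Rgs16 and Egr1 passed in all 31 alternatives run. The time between laminectomy and collection is not labelled.

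No other gene of the lists passed in all contused minus all uninjured. Of 29 cyclic AMP targets 21 were higher (median 0.21), 3 of them past the threshold as named above. Of 15 phosphodiesterases 13 were higher (median 0.27), while 9 of 13 G proteins and adenylyl cyclases were lower (median -0.28), with Gnas at -0.84 ± 0.26 (adjusted p = 0.215) and Adcy2, a cyclase, at -0.61 ± 0.29. Of the 21 genes of the protein kinase A list 11 were lower (median -0.021), with the catalytic subunit gene Prkaca at -0.82 ± 0.29 (adjusted p = 0.297). The highest uninjured signals of both genes were on laminectomy 2 and normal 1, which stood apart. Gnas read 2299.5 and 3363.9 there, and 1145.8 to 1457.4 on the other uninjured arrays. Prkaca read 4530.7 and 3042.0 there, and 870.7 to 1809.6 on the others. Contused arrays read 510.6 to 1312.8 for Gnas and 869.8 to 1446.1 for Prkaca. The receptors split 4 and 4 (median 0.026), 5 of 7 receptor kinases and arrestins were higher (median 0.30), 7 of 9 CREB family genes were higher (median 0.36), and 8 of 16 RGS genes were higher (median -0.033, with Rgs4, an RGS protein of neurons, at -1.25 ± 0.44). Of 15 PGC-1 partners and targets 11 were lower (median -0.32), among them Esrra, the nuclear receptor that PGC-1 alpha works with, at -1.06 ± 0.42 (adjusted p = 0.362). Neuron markers were lower in 10 of 10 genes between the same groups, with 1 past the threshold. Oligodendrocyte markers were lower in 7 of 7 measured, with 1 past it, and astrocyte markers in 6 of 8, with 2 past it. Neutrophil markers were higher in 4 of 5 measured, with 2 past it. Microglia and macrophage markers were higher in 7 of 8 and red cell markers in 4 of 4 measured, each with 1 past it. No marker of endothelium, of pericytes and smooth muscle, or of skeletal muscle and fat passed. Their part in the pathway values was not tested.

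**Figure D4:**
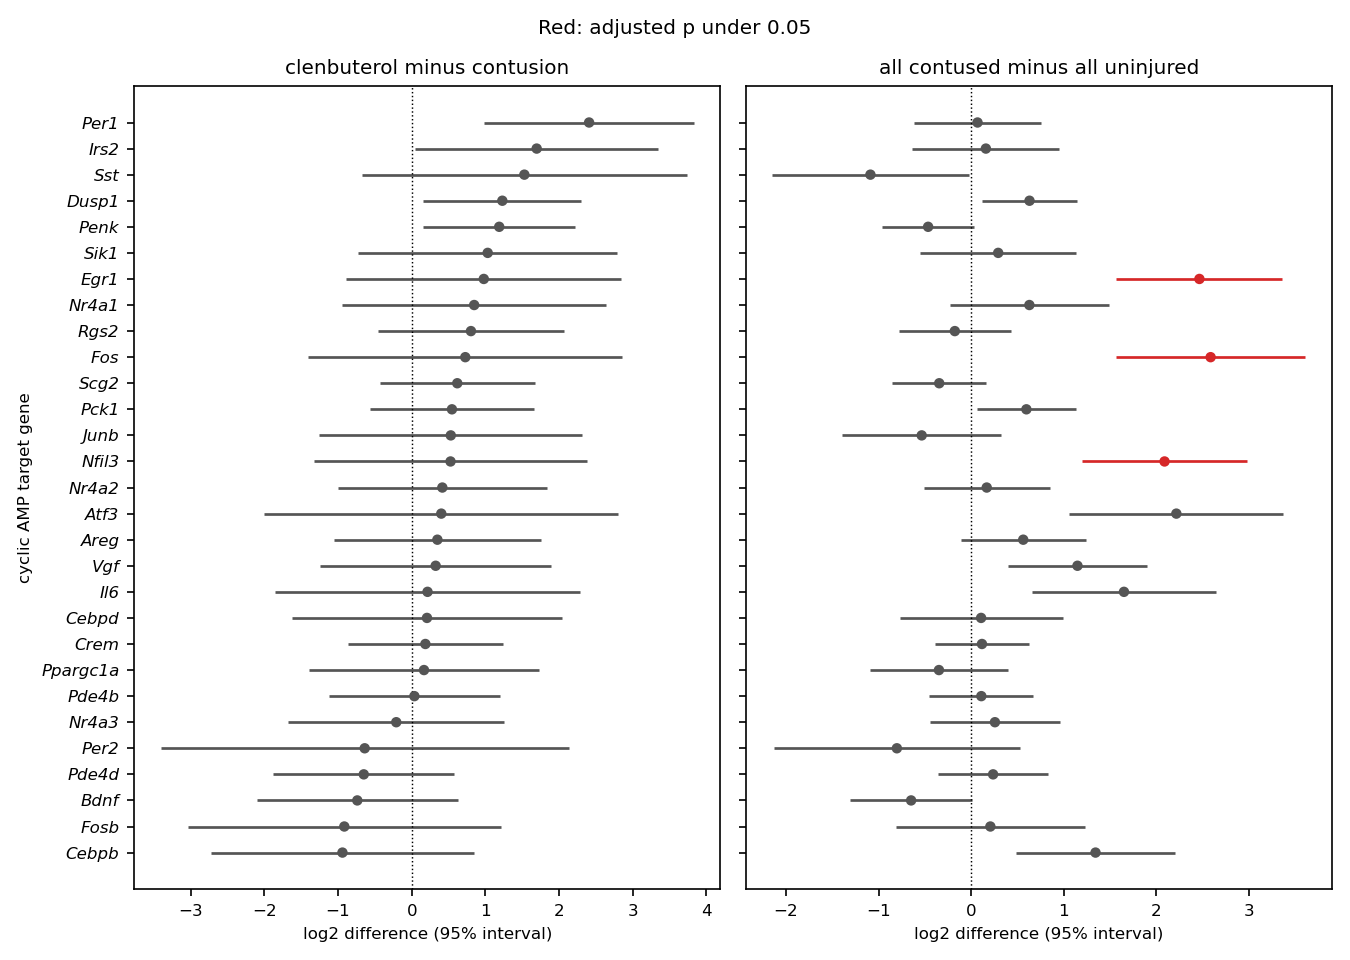
Log2 difference with its 95% interval for the 29 measured cyclic AMP target genes, in clenbuterol minus contusion (left) and all contused minus all uninjured (right), in red where the adjusted p was under 0.05. On the left 23 of 29 points lie above 0 and none is red, and on the right Egr1, Fos and Nfil3 are red, at 2.47, 2.59 and 2.09.

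Across the 22 arrays the 6 genes did not vary as a block. Pearson's r of log2 signals between pairs of them ran from -0.44 (Pde4d with Crem) to 0.54 (Crem with Rgs2), and Pde4b had 0.47 with Rgs2 and 0.42 with Crem. The arrays share groups and a common scaling, so these are descriptions. Each was then compared with 16204 to 16206 probe sets of other genes that had a single gene symbol and a mean log2 signal of at least 6. The highest correlations were with Snapc5 for Adrb1 (0.77), Npvf for Rgs2 (0.83) and Pfdn1 for Pde4b (0.78). For Pde4d it was Rbm34 (0.86), for Crem Gadd45a (0.74) and for Ppargc1a Rasa4 (0.70). Next came Fmod and Mccc1 for Adrb1, Gmfb and Gtf2f1 for Rgs2, Vamp8 and Pacs2 for Pde4b, Rhoxl and Cyp2t1 for Pde4d, Bmp6 and Ufd1 for Crem, and Pdzd4 and Cdk18 for Ppargc1a. Each is the highest of many values from 22 arrays.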

How the data were processed

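Rat spinal cord RNA was measured on 22 Affymetrix arrays. The authors deposited a linear signal intensity per probe set. The submitters' processing notes name RMA, but the deposited intensity values are neither logarithmic nor quantile normalised, and each array has the same mean, near 250.0, once 2% is trimmed at each end. Of 31099 probe sets 57 controls were left out. A single gene symbol belongs to 20826 of the 31042 tested, more than 1 to 436, and no symbol to 9780. By Entrez number 20758 were matched to RefSeq. The values were taken to log2 with no pseudocount and fitted with limma 3.58.1 in R 4.3.3 as a model of 8 groups with eBayes, which had 4.71 prior beside 14 residual degrees of freedom and a median moderated SD of 0.829. Tests were two-sided and adjusted over all 31042 probe sets. Errors after ± are standard errors. The small number of arrays limits the precision. Log2 ratios to a mean of groups weight each group equally.

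Groups came from the labels. The 6 genes, the lists and the tests were chosen with earlier results of these data known. Named genes were the 6 genes, list genes past the threshold, those of small p-value in 2 comparisons, and a fixed set, of which 1 gene is not reported here. The fit was tested on simulated data. Alternatives were quantile normalisation, log2 of signal plus 32, a filter at a mean log2 of 6, trend and robust eBayes, the compared groups only, array weights, replicate numbers as a block, a fit without laminectomy 2 and normal 1, leaving out each array, and averaging the probe sets of each gene.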

Additional observations from a re-analysis of the deposited data

How the results depend on the processing

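No probe set of the 6 genes passed under any alternative, except that the filter on low signal let 1 pass in laminectomy minus normal, the second of Rgs2, whose mean falls under the filter without the normal arrays, in which it was high. Counts over all probe sets moved more. In clenbuterol minus contusion the count of 1 was 0 with signal plus 32 and with the compared groups only, and 0 to 3 on leaving out arrays. In clenbuterol minus the other contused groups the count of 2 was 6 with signal plus 32, 4 with the filter and with trend and robust settings, 1 with the compared groups only, 10 without laminectomy 2 and normal 1, and 1 to 29 on leaving out arrays. In laminectomy minus normal the count of 2 was 9 with signal plus 32, 11 with the filter, 16 with trend and robust settings, 0 with the compared groups only, 4 without laminectomy 2 and normal 1, and 1 to 5 on leaving out arrays. In all contused minus all uninjured the count of 99 was 172 with signal plus 32, 182 with trend and robust settings, and 59 to 97 on leaving out arrays. With the replicate block the count of 2 in clenbuterol minus the other contused groups was 0. In all contused minus all uninjured Fos then had an adjusted p of 0.0501. Same-numbered arrays of different groups showed no common deviation (median correlation -0.0047 over 71 pairs, 7 of them over 0.1). With so few arrays a group this cannot exclude a pairing by number, and the labels give none.

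Signs of some small differences turned. In clenbuterol minus contusion Pde4b was -0.0069 after quantile normalisation and Ppargc1a was -0.70 with the mean of its probe sets. On leaving out arrays Adrb1 ran from -0.086 to 1.10, Pde4b from -0.10 to 0.17, Crem from -0.31 to 0.68, Ppargc1a from -0.32 to 0.65, Pde4d probe set 2 from -2.98 to 0.82, Pde4d probe set 3 from -0.45 to 0.66 and Crem probe set 4 from -0.77 to 1.02. In clenbuterol minus the other contused groups Adrb1 ran from -0.028 to 0.28, Crem from -0.24 to 0.75 and Ppargc1a from -0.83 to 0.14. With the mean of its probe sets Pde4d was -0.069 in contusion minus laminectomy and -0.0014 in all contused minus all uninjured, where Rgs2 was 0.13 with the mean of its probe sets and 0.072 without laminectomy 2 and normal 1, and Pde4b ran from -0.066 to 0.32 on leaving out arrays. The cause of these changes was not tested. The count of cyclic AMP targets higher with clenbuterol than in contusion was 23, and 19 to 21 on leaving out arrays. A group of 2 left with 1 array was assumed to vary like the others.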
